A study of Homo sapiens with 18 samples.

Results

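Neuroligins, neurexins and LRRTM proteins are cell surface molecules that meet across the synaptic cleft. Neurexins sit mainly on the presynaptic side, and neuroligins and LRRTMs are postsynaptic proteins that bind them, so that the families form competing and alternative bridges between neurons. Their RNA levels were described here for 9 genes of the count table, chosen by name: the neuroligin genes NLGN1, NLGN2, NLGN3 and NLGN4X, the neurexin genes NRXN2 and NRXN3, and LRRTM1, LRRTM2 and LRRTM3. These are 9 of 57133 genes in the table, and LRRTM2 alone had too few counts to be tested, which left 8.

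RNA-seq was performed on PGP1, a human induced pluripotent stem cell line cultured in mTeSR1 medium on Matrigel. None of these libraries comes from a neuronal culture. The WT group had 2 libraries, and the PCGF6-KO group had 4, which came from 2 clones (KO clone 1 and KO clone 2, with 2 libraries each). The clones carry different CRISPR-Cas9 deletions in the first exon of PCGF6 on both alleles, PCGF6 being the subunit that defines the Polycomb complex PRC1.6. Each clone is a single line, and nothing in the sources used here says that libraries of a group came from separate cultures, so the p-values measure the spread between these libraries, which may be technical.

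The libraries held between 15877396 and 18918609 counts. PCGF6 itself had 268 and 300 counts in WT, 99 and 103 in KO clone 1 and 187 and 159 in KO clone 2, and its log2 fold change in PCGF6-KO was -1.15 (SE 0.27, adjusted p = 0.00914). The table holds counts per gene, so it does not show where in PCGF6 the remaining reads lie. Of the 12 mesendoderm markers, 11 were tested and all 11 were called higher in PCGF6-KO. Their summed level in CPM (counts per 1e6 TMM-scaled counts) was 6.83 to 7.43 in WT, with MESP1, HAND1 and SOX17 at 0, and 735 to 1020 in the 4 PCGF6-KO libraries. Of the 8 pluripotency markers, 3 were called lower (SOX2, DNMT3B and ZFP42) and none was called higher. The 12 neuronal markers did not move together: 4 were called higher and 2 lower, and their sum was 211 to 218 CPM in WT and 390 to 450 CPM in PCGF6-KO. Of 7 tested glial markers 1 was called higher and 1 lower, and of 9 endothelial and smooth muscle markers 4 were called higher and 2 lower. The marker levels that changed did so with the genotype, in the same libraries as the values below. Their part in those values was not tested. In bulk RNA, fewer cells of a type and less RNA per cell cannot be told apart.

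The 4 neuroligin genes lie on chromosomes 3, 17 and X, and the neurexin genes are very long, NRXN3 covering 14:78170373-79868291 on the plus strand (GRCh38, GENCODE v44). The sequence before the starts of 3 genes is shown, those of the member with the largest decrease and of the 2 members called higher. The windows come from RefSeq (GRCh38.p14), end at the start site or at the first annotated exon base, run 5′ to 3′ on the strand of the gene, and have every CG dinucleotide in capitals. NLGN3, which fell most, has its window at chrX:71144591-71144820 on the plus strand. NRXN3, which rose, is shown at chr14:78170123-78170372 before its first start, and at chr14:79279130-79279338 before an internal start. Another internal NRXN3 start, with its window at chr14:78403469-78403718, is not shown. LRRTM1, which also rose, is shown at chr2:80304753-80305002 on the minus strand.
NLGN3: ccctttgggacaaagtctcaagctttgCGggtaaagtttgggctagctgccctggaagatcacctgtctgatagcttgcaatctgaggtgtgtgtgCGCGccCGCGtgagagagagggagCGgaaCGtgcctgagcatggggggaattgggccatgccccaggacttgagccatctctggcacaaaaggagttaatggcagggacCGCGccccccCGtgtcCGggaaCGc
NRXN3, first start: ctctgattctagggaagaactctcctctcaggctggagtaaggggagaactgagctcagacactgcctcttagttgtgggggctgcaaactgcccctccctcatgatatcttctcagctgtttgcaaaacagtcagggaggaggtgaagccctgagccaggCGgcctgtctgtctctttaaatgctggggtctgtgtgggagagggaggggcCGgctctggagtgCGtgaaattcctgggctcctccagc
NRXN3, internal start: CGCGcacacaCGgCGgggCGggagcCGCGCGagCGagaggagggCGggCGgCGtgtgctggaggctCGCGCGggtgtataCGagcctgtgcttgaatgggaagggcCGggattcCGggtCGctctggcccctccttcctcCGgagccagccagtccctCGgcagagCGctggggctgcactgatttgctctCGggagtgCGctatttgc
LRRTM1: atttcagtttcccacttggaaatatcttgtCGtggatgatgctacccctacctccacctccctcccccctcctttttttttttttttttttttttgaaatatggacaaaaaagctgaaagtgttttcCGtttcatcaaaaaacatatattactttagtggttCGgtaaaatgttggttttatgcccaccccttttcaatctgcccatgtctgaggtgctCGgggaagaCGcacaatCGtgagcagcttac

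The windows differ in CG content. The NLGN3 window held 12 CG in 230 bases, with 60.0% G or C. The first NRXN3 window held 3 CG in 250 bases, and the internal NRXN3 window held 24 in 209 bases with 70.3% G or C. The LRRTM1 window held 6 CG in 250 bases with 40.8% G or C. Over 35116 promoter windows of 250 bases the median was 58.0% G or C. The counts are per gene, so they do not say from which NRXN3 start the additional reads came.

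PRC1.6 contains the DNA-binding proteins MAX and E2F6, so the 250-base windows of the 8 genes with an entry were searched on both strands for CACGTG, the E-box bound by MAX, and for GCGGGAA, an E2F6 motif. NRXN2 had no entry. These windows are few, so a count of matches among them cannot be told apart from the share over all windows. No window held CACGTG, which 6.34% of all 35116 windows hold. The E2F6 motif, which 5.52% of all windows hold, was found once, before an internal start of NLGN4X at chrX:6227101-6227127 on the minus strand. There it ends 24 bases before the start site and lies in an annotated exon of another transcript, shown with the motif in capitals (in the reverse orientation).
NLGN4X: cgcctcccaaTTCCCGCgcggctcggc

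Members were called in both directions within the neurexins, and in the lower direction only among the neuroligins. In PCGF6-KO against WT, 4 of the 8 tested genes were called lower (NLGN2, NLGN3, NLGN4X and NRXN2), 2 were called higher (NRXN3 and LRRTM1), and 2 were not called (NLGN1 and LRRTM3). Genes were called when the adjusted p was under 0.05 and the log2 fold change was beyond 0.6 in size. Of all 17672 tested genes, 8.7% were called lower and 14.9% higher. The median log2 fold change was -0.96 over the 8 genes and 0.00 over all tested genes. All 4 PCGF6-KO libraries lay below both WT libraries for 5 of the 8 genes, where 27.6% of all tested genes did so, and above both for the other 3, where 29.5% did so.

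**Figure D1:**
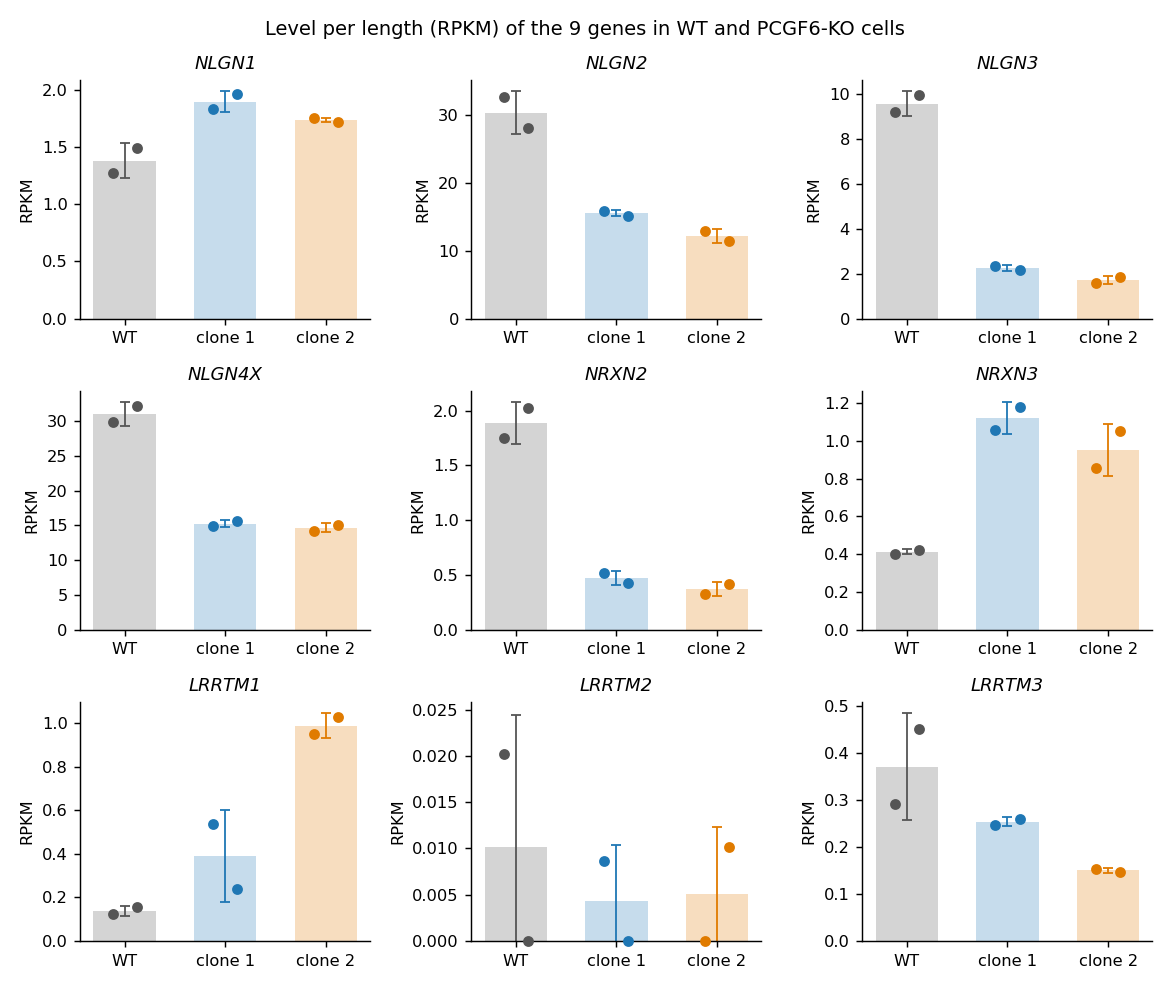
RPKM (CPM divided by the gene length in kilobases) of the 9 genes in WT, KO clone 1 and KO clone 2. Points are libraries, bars are means and whiskers are ± SD (n = 2). NLGN2, NLGN3, NLGN4X and NRXN2 are lower in every PCGF6-KO library than in WT, NRXN3 and LRRTM1 are higher, and LRRTM2 is near 0 everywhere.

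NLGN3, a neuroligin of both excitatory and inhibitory synapses, had the largest decrease. Its level was 36.8 and 39.9 CPM in WT, 9.41 and 8.64 CPM in KO clone 1, and 6.40 and 7.42 CPM in KO clone 2. The PCGF6-KO libraries lay far below WT and did not overlap with it. The log2 fold change was -2.26 (SE 0.14, adjusted p = 4.7e-06), a 4.80-fold decrease. It was -2.09 in KO clone 1 (adjusted p = 1.9e-14) and -2.48 in KO clone 2 (adjusted p = 1.2e-15).

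NLGN2, the neuroligin of inhibitory synapses, was an abundant member, with 181 and 156 CPM in WT. It fell to 88.2 and 84.6 CPM in KO clone 1 and to 71.4 and 63.3 CPM in KO clone 2. Every PCGF6-KO library was below both WT libraries, and KO clone 2 was below KO clone 1. The log2 fold change was -1.13 (SE 0.13, adjusted p = 0.000161), with -0.96 in KO clone 1 and -1.32 in KO clone 2.

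NLGN4X, an X-linked neuroligin, had levels near those of NLGN2 per length. It was measured at 222 and 240 CPM in WT, 111 and 116 CPM in KO clone 1, and 106 and 113 CPM in KO clone 2. The 4 PCGF6-KO libraries lay close together, and the log2 fold change was -1.05 (SE 0.06, adjusted p = 3.8e-06), a 2.07-fold decrease. NLGN4X has a near-identical copy on the Y chromosome, and how reads that match both were counted is not given in the sources used here, so its level is uncertain to that extent.

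NLGN1, the neuroligin of excitatory synapses, was the exception among the neuroligins. It had 12.9 and 15.1 CPM in WT, 18.6 and 19.9 CPM in KO clone 1, and 17.8 and 17.5 CPM in KO clone 2. The PCGF6-KO libraries were all above WT, but by a small step. Its log2 fold change was 0.40 (SE 0.11, adjusted p = 0.0231), which passed the p threshold and not the threshold on size. It was therefore not called, in PCGF6-KO or in either clone. The pooled change was 0.29 without WT replicate 1 and 0.52 without WT replicate 2, and it passed the p threshold only with both WT libraries. In KO clone 2 the change of NLGN1 did not pass the p threshold with DESeq2 (0.33, adjusted p = 0.134).

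The RNA pool of these 4 neuroligin genes, which leaves out the Y-linked copy of NLGN4X, thus became smaller and changed in makeup. The summed level per length of the 4 genes was 72.8 and 71.8 RPKM in the WT libraries, 35.0 and 34.9 in KO clone 1, and 30.4 and 30.1 in KO clone 2. NLGN2 and NLGN4X made up most of it in every library, with 37.9% to 45.5% and 40.9% to 50.3% of the sum. The share of NLGN3 was 12.6% and 13.9% in WT and 5.25% to 6.72% in PCGF6-KO. The deposited lengths of NLGN3 and NLGN1 differ from the exon lengths of GENCODE v44. With the GENCODE v44 lengths, the mean share of NLGN3 was 4.18% in WT and 1.84% in PCGF6-KO. The share of NLGN1, with the deposited length, was 1.74% and 2.07% in WT and 5.25% to 5.75% in PCGF6-KO. With the GENCODE v44 length its mean level was 0.782 RPKM in WT and 1.03 in PCGF6-KO, against 1.38 and 1.82. Its share was not recomputed. For both shares the groups did not overlap, and the exact permutation test (two-sided) gave p = 0.133, the smallest that 4 libraries against 2 allow.

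**Figure D2:**
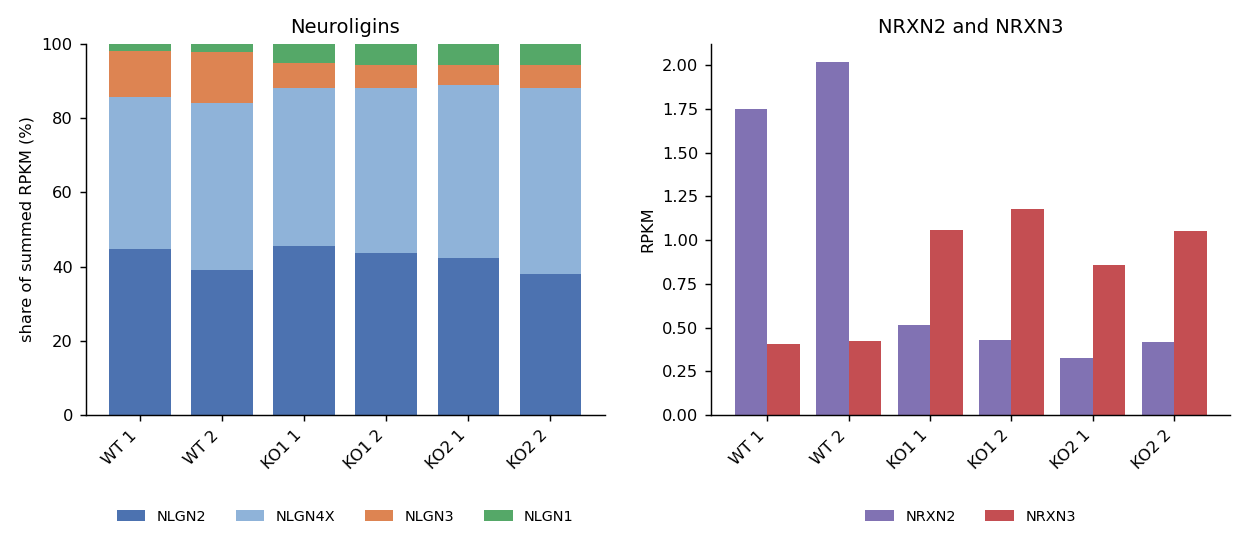
Share of the summed RPKM that each gene takes (%, y axis) among 4 neuroligins (left, 1 bar per library), and RPKM of NRXN2 and NRXN3 in each library (right). NRXN2 is above NRXN3 in both WT libraries (1.75 and 2.02 against 0.403 and 0.424 RPKM) and below it in all 4 PCGF6-KO libraries.

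The neurexin genes moved in opposite directions. NRXN2 had 18.5 and 21.4 CPM in WT, 5.44 and 4.51 CPM in KO clone 1, and 3.47 and 4.43 CPM in KO clone 2. It was lower in every PCGF6-KO library, with a log2 fold change of -2.16 (SE 0.17, adjusted p = 1.8e-05), a 4.46-fold decrease. A long noncoding gene on the other strand, NRXN2-AS1, shares 289 bases (2.06%) of the NRXN2 exons, and whether the counting used strand is not given in the sources used here.

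NRXN3 had 6.26 and 6.59 CPM in WT, 16.5 and 18.4 CPM in KO clone 1, and 13.3 and 16.3 CPM in KO clone 2. All PCGF6-KO libraries were at least at the level of 13.3 CPM, above both WT libraries. The log2 fold change was 1.33 (SE 0.16, adjusted p = 0.000216), with 1.44 in KO clone 1 and 1.20 in KO clone 2. The difference between the clones was -0.24 (adjusted p = 0.188).

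The order of NRXN2 and NRXN3 was therefore turned around. NRXN2 per length was 4.33 and 4.77 times the level of NRXN3 in the WT libraries and 0.36 to 0.485 times it in the PCGF6-KO libraries (means 4.55 ± 0.311, SD, n = 2, and 0.407 ± 0.0545, n = 4, exact permutation p = 0.133, the smallest possible). The ratio moved through both genes, with NRXN2 at 0.328 to 0.514 RPKM and NRXN3 at 0.856 to 1.18 RPKM in PCGF6-KO.

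**Figure D3:**
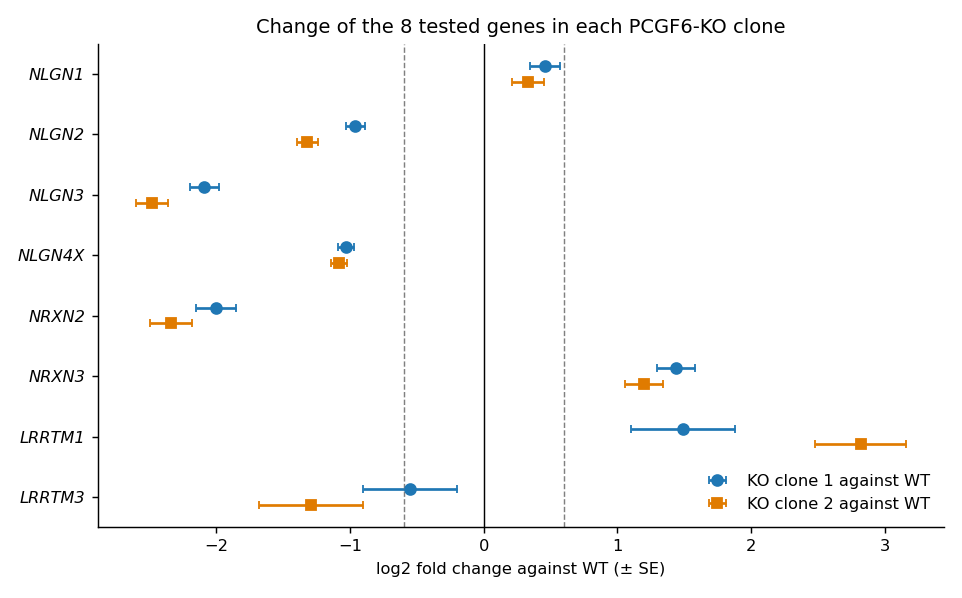
Log2 fold change against WT (x axis) of the 8 tested genes in KO clone 1 (circles) and KO clone 2 (squares), with whiskers of ± SE and dashed lines at ± 0.6. NLGN2, NLGN3, NLGN4X and NRXN2 lie left of the lines in both clones, NRXN3 and LRRTM1 lie right, and LRRTM1 is further right in KO clone 2 (2.82) than in KO clone 1 (1.49).

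The LRRTM genes were expressed at low levels, and each of the 3 lies inside a longer alpha-catenin gene on the opposite strand. LRRTM1 (2:80288351-80304752, minus strand) lies within CTNNA2 without sharing exon bases. It had 10 and 13 counts in WT, 52 and 22 in KO clone 1, and 87 and 83 in KO clone 2. All PCGF6-KO libraries were higher than WT, and the libraries of KO clone 1 differed from each other more than the WT or KO clone 2 libraries did. The log2 fold change was 2.30 (SE 0.61, adjusted p = 0.0168), with 1.49 in KO clone 1 (SE 0.39, adjusted p = 0.00274) and 2.82 in KO clone 2 (SE 0.34, adjusted p = 1.0e-07). The pooled call was lost without either WT library (2.14, adjusted p = 0.123, and 2.48, adjusted p = 0.0927), and the call in KO clone 1 was lost without its replicate 1 (0.79, adjusted p = 0.176).

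CTNNA2, the host gene, moved the other way. It encodes the alpha-catenin found mainly in neurons and had 15.6 and 13.7 CPM in WT and 2.51 to 2.92 CPM in PCGF6-KO. Its log2 fold change was -2.44 (SE 0.15, adjusted p = 4.0e-06).

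LRRTM3 (10:66926036-67101551, plus strand) lies within CTNNA3, with which it shares 177 exon bases (2.79% of its exons). It had 22 and 35 counts in WT, 22 and 22 in KO clone 1, and 13 and 11 in KO clone 2. In CPM, KO clone 1 (1.15 and 1.21) lay just below the lower WT library (1.35), and KO clone 2 (0.717 and 0.686) lay further below. Its log2 fold change of -0.86 (SE 0.35, adjusted p = 0.0823) was not called. In KO clone 2 the change was -1.29 (SE 0.39, adjusted p = 0.00738) and was called, and in KO clone 1 it was -0.55 (adjusted p = 0.21). The direct test of KO clone 2 against KO clone 1 gave -0.74 (SE 0.41, adjusted p = 0.224), which did not pass. The call in KO clone 2 was lost with DESeq2 (-1.30, adjusted p = 0.0978) and without WT replicate 2 (-0.94, adjusted p = 0.154).

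CTNNA3, the alpha-catenin known from heart and testis, rose from 3.25 and 3.90 CPM in WT to 9.94 and 9.90 CPM in KO clone 1, and had 4.63 and 5.55 CPM in KO clone 2 (log2 fold change 1.07, SE 0.35, adjusted p = 0.0388). The clones differed by -0.97 (KO clone 2 against KO clone 1, adjusted p = 8.7e-05). Against WT it was called in KO clone 1 (1.47) and not in KO clone 2 (0.50). Against WT, the fitted changes of LRRTM1 and CTNNA2, and of LRRTM3 and CTNNA3, thus had opposite signs. The pooled change of LRRTM3 did not pass the test. In KO clone 2 against KO clone 1, LRRTM3 (-0.74, not called) and CTNNA3 (-0.97) had the same sign. CTNNA2 was level between the clones (-0.02, adjusted p = 0.96), while LRRTM1 was higher in KO clone 2 (1.33).

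LRRTM2 (5:138868921-138875368, minus strand) lies within CTNNA1, with which it shares 445 exon bases (7.3% of its exons), and was close to undetected. It had 2 and 0 counts in WT, 1 and 0 in KO clone 1, and 0 and 1 in KO clone 2. All libraries were under the limit of 3 counts that a count of 0 allows, which is 0.157 to 0.187 CPM, so no change was detectable at this depth. These limits cover counting error only. CTNNA1, the alpha-catenin of most epithelial and stem cells, had 498 and 503 CPM in WT and 531 to 584 CPM in PCGF6-KO and was not called (0.18, SE 0.06, adjusted p = 0.0458). LRRTM4, a relative outside the set, had 13.4 and 13.1 CPM in WT and 10.2 to 14.7 CPM in PCGF6-KO and was not called either (-0.13, adjusted p = 0.546).

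**Figure D4:**
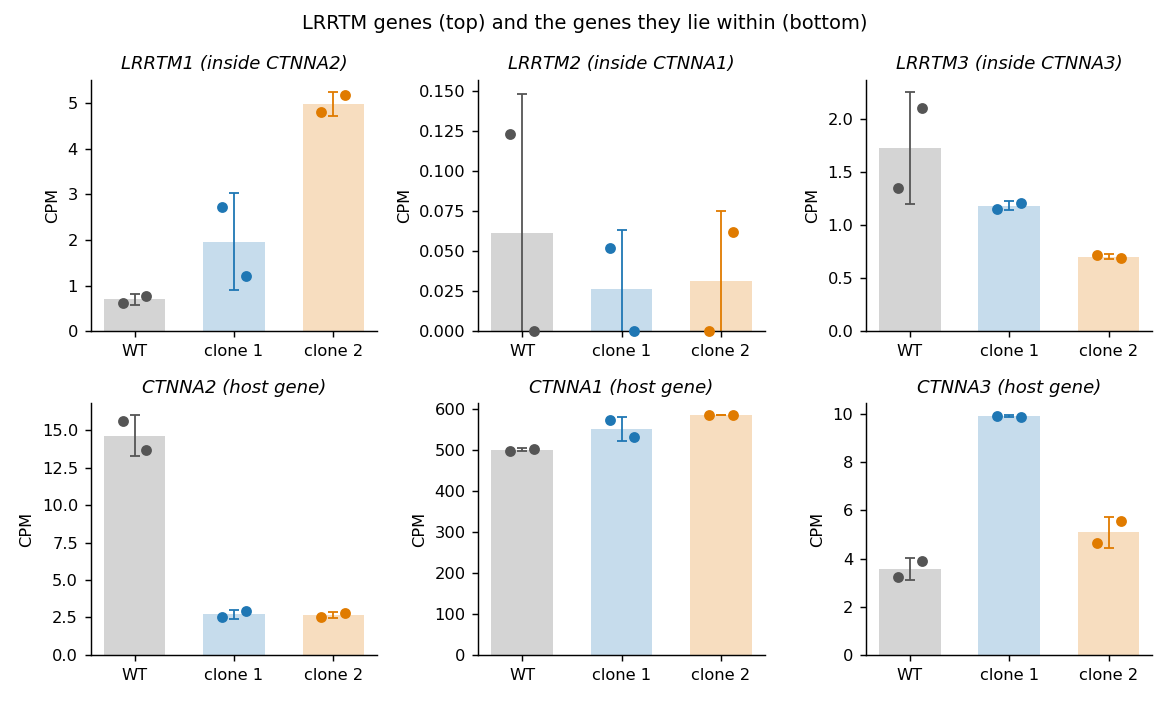
CPM (y axis) of LRRTM1, LRRTM2 and LRRTM3 (top) and of CTNNA2, CTNNA1 and CTNNA3, the genes they lie within (bottom), by group. Points are libraries, bars are means and whiskers are ± SD (n = 2). Against WT, LRRTM1 is higher and CTNNA2 lower in both clones, and LRRTM3 has its lowest values in KO clone 2 (0.717 and 0.686 CPM).

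Per length, the order of the genes in WT was NLGN4X (31.0 ± 1.72 RPKM, SD, n = 2) and NLGN2 (30.3 ± 3.17), which did not differ beyond their spread, then NLGN3 (9.57 ± 0.551), NRXN2 (1.88 ± 0.194) and NLGN1 (1.38 ± 0.154). NRXN3 (0.414 ± 0.0149) and LRRTM3 (0.371 ± 0.113) followed and did not differ beyond their spread, and LRRTM1 (0.138 ± 0.0231) was above LRRTM2. In PCGF6-KO, NLGN4X (15.0 ± 0.572 RPKM, n = 4) and NLGN2 (13.8 ± 2.09) still led, within their spread of each other. NLGN3 (1.99 ± 0.332) and NLGN1 (1.82 ± 0.109) were then level within their spread. NRXN3 (1.04 ± 0.135) was above NRXN2 (0.422 ± 0.0759), and LRRTM1 (0.689 ± 0.368) lay between them and within its spread of both. LRRTM3 (0.202 ± 0.0598) and LRRTM2 came last. These levels rest on the deposited gene lengths. With the exon length of GENCODE v44, chosen after seeing that the lengths differ, NLGN3 was at 2.67 RPKM in WT and 0.554 in PCGF6-KO, and NLGN1 was at 0.782 and 1.03, so NLGN1 lay above NLGN3 in PCGF6-KO with no overlap (0.974 to 1.11 against 0.445 to 0.655). The ratio of NRXN2 to NRXN3 was then 3.44 in WT and 0.307 in PCGF6-KO. In WT, LRRTM3 was then at 0.272 RPKM (0.213 to 0.331), below NRXN3 (0.403 to 0.424) with no overlap.

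In KO clone 1 against WT, 4 genes were called lower (8.8% of all tested genes were) and 2 higher (16.0% were), the same genes as in the pooled comparison. In KO clone 2, 5 were called lower (12.5% of all tested genes) and 2 higher (16.9%), LRRTM3 being the additional gene. Both comparisons use the same WT libraries. In KO clone 2 against KO clone 1, LRRTM1 was called higher (1.33, SE 0.27, adjusted p = 0.000791) and no member was called lower, where 3.73% and 4.14% of all tested genes were called. NLGN2 (-0.36, SE 0.08, adjusted p = 0.00147) and NLGN3 (-0.39, SE 0.14, adjusted p = 0.0481) were lower in KO clone 2 by less than the threshold on size. The adjusted p of NLGN3 was above 0.05 with DESeq2 (0.195), with no filter (0.0888) and on leaving out any of the 6 libraries (0.0502 to 0.317), and that of NLGN2 was 0.0519 without KO clone 2 replicate 2. The difference of LRRTM1 was 2.04 without KO clone 1 replicate 1 and 0.87 (adjusted p = 0.0262) without KO clone 1 replicate 2. PCGF6 RNA also differed between the clones (0.90, SE 0.15, adjusted p = 5.4e-05).

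The genes with the most similar profile were sought among 13862 genes whose log2 CPM averaged 1 or more (13863 for LRRTM3), by the Euclidean distance of mean-centred log2 CPM over the 6 libraries. The gene nearest to NRXN2 was NLGN3 (distance 0.212), and the next was B3GAT1 (0.239), which encodes the glucuronyltransferase of the HNK-1 carbohydrate on neural adhesion molecules. B3GAT1 was also the gene nearest to NLGN3 (0.0633), followed by GABRA3 (0.207), a GABA-A receptor subunit. NLGN4X was nearest to SCG3 (0.0739), a secretory granule protein, and RBM47 (0.104), an RNA-binding protein, and NLGN2 to CRACR2B (0.0827) and TCEAL2 (0.0914). NLGN1 was nearest to TWSG1 (0.0755) and LCMT2 (0.079), and NRXN3 to NIPA1 (0.152) and SCRN1 (0.203). LRRTM1 was farthest from its nearest genes (GGT1 at 0.677 and RIN2 at 0.70), and LRRTM3 was nearest to UPK3B (0.281) and LRFN1 (0.312), itself a synaptic adhesion gene. With 6 libraries in 2 genotypes, any genes that change by a like amount lie near each other.

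The other extracellular ligands and regulators of neurexins and neuroligins did not move in a single direction. Of 32 genes, 25 were tested, 7 were called higher, 4 lower and 14 not, with a median log2 fold change of 0.21. Over all tested genes, 14.9% were called higher and 8.7% lower. MDGA1 and MDGA2, which bind neuroligins and block their contact with neurexins, were both called higher. MDGA1 rose from 3 and 4 counts in WT to between 31 and 57 in PCGF6-KO (3.58, SE 0.39, adjusted p = 0.000136), and MDGA2 from 127 and 129 counts to between 544 and 620 (2.07, SE 0.10, adjusted p = 1.1e-06). CBLN2, a secreted cerebellin that bridges neurexins to glutamate receptor delta subunits, had 2 and 0 counts in WT and 6 to 18 in PCGF6-KO and was called higher (adjusted p = 0.0132). NXPH2, a neurexophilin, was higher (1.27) and NXPH3, another, was lower (-1.26), as were IGSF21 (-1.21), a neurexin ligand at inhibitory synapses, CA11 (-1.18) and C1QL1 (-0.93), a secreted C1q-like ligand. CLSTN1 (0.17, adjusted p = 0.14) and ADGRL1 (-0.19, adjusted p = 0.118), encoding a calsyntenin and a latrophilin, were not called. Another latrophilin gene, ADGRL2, singled out after its values were seen, was called higher (1.10, SE 0.06, adjusted p = 1.7e-06).

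Of 43 other trans-synaptic adhesion genes, 41 were tested, 17 were called higher, 8 lower and 16 not (median 0.13). The shares over all tested genes were 14.9% higher and 8.7% lower. The largest increases by fitted value were those of IL1RAPL1 (0 and 1 counts in WT, 21 to 37 in PCGF6-KO), LRFN5 (4.25, SE 0.12), SLITRK2 (4.07, SE 0.64) and FLRT3 (3.51, SE 0.39). LRFN2 (-2.64, SE 0.81), FLRT1 (-2.31, SE 0.41), CADM2 (-1.59, SE 0.25) and EPHB2 (-1.40, SE 0.10) had the largest decreases. The LRFN and FLRT families were therefore divided like the neurexins, with members called in both directions.

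Of 37 tested genes for intracellular scaffold partners, 2 were called higher, 7 lower and 28 not (median -0.13), where 14.9% of all tested genes were called higher and 8.7% lower. DLG4, encoding PSD-95, to which neuroligins bind, was lower (-0.82, SE 0.13, adjusted p = 0.00112). PPFIA3 (-1.50), SHANK2 (-1.47) and CASKIN1 (-1.40) were lower too, and APBA1 (3.31) and DLG2 (0.76) were higher. GPHN, encoding gephyrin of inhibitory synapses, was at -0.26 on the log2 scale (adjusted p = 0.153), and CASK, which binds neurexin tails, was at -0.10 (adjusted p = 0.295), and neither was called.

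Among 16 regulators of neurexin splicing and proteases that cut these proteins, 1 was called higher, 5 lower and 10 not (median -0.17). The shares over all tested genes were again 14.9% higher and 8.7% lower. KHDRBS3, encoding the STAR protein SLM2, was higher (1.64, SE 0.10, adjusted p = 4.1e-06). NOVA2 (-2.89, SE 0.41), RBFOX3 (-2.11, SE 0.14), SRRM4 (-1.13, SE 0.17) and NOVA1 (-1.04, SE 0.14), which encode splicing regulators of neurons, were lower. KHDRBS1 (-0.28), PTBP1 (-0.01) and PTBP2 (-0.52) were not called. The table holds counts per gene, so splice forms of the neurexins were not measured.

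**Figure D5:**
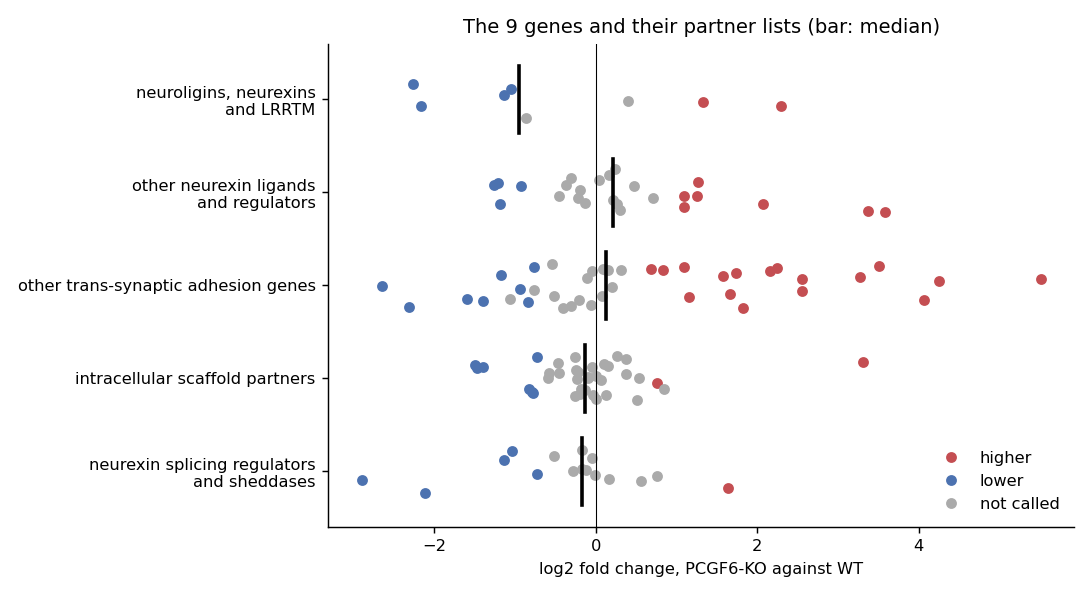
Log2 fold change in PCGF6-KO against WT (x axis) of the tested genes of each list (y axis, points spread vertically for display), coloured by call, with a bar at the median. The 8 tested neuroligin, neurexin and LRRTM genes have a median of -0.96, and the partner lists have medians between -0.17 and 0.21.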

How the data were processed

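RNA-seq libraries of WT, KO clone 1 and KO clone 2 PGP1 cells were used, and ChIP-seq samples were not analysed here. The authors trimmed reads with Trim Galore (0.6.2), aligned them to GRCh38 with HISAT2 (2.1.0) and used featureCounts for gene counts, and the deposited values are raw counts beside a gene length in bases. The annotation release, strand setting and handling of multi-mapped reads are not given in the sources used here. The members and gene lists were chosen with earlier results of these data known.

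Of 57133 genes, 17672 passed edgeR's filterByExpr on genotype. Counts were scaled by TMM and compared with edgeR's quasi-likelihood test (glmQLFit and glmQLFTest, edgeR 4.0.16, limma 3.58.1, R 4.3.3), with Benjamini-Hochberg adjustment over all tested genes. Genes were called at an adjusted p under 0.05 with a log2 fold change beyond 0.6 in size. The 4 PCGF6-KO libraries were compared with the 2 WT libraries, and both clone comparisons with WT and that of KO clone 2 with KO clone 1 came from 1 fit over 3 groups. SE is the log2 fold change divided by the square root of F. CPM use TMM-scaled totals, and RPKM divides CPM by the deposited length in kilobases. The common biological coefficient of variation was 0.12. Replicates differed by more than counting noise (chi-square per degree of freedom 2.48 in WT, 4.9 in KO clone 1 and 3.4 in KO clone 2, where 1 is expected), so no pair was counted as 1 sample. The code was tested on simulated data. Named genes were all members, their host genes, PCGF6, up to 4 called genes with the largest increase and 4 with the largest decrease per partner list with genes fixed by name (an item among them is not reported here), and the 2 genes most like each tested member. Alternatives were RLE and upper-quartile scaling, no filter, a minimum of 10 counts in every library, DESeq2 (1.42.0), the replicate block, other thresholds, the mean of the clones and leaving out each library.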

Additional observations from a re-analysis of the deposited data

Results flagged for a closer look

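The change from WT differed between the clones for 3 genes at an adjusted p under 0.05 in the direct test of KO clone 2 against KO clone 1 (edgeR's quasi-likelihood test, Benjamini-Hochberg adjustment). LRRTM1 differed by 1.33 on the log2 scale (adjusted p = 0.000791) and was higher in KO clone 2, where its counts were 87 and 83, against 52 and 22 in KO clone 1. Its difference was 2.04 without KO clone 1 replicate 1 and 0.87 without KO clone 1 replicate 2. NLGN2 differed by -0.36 (adjusted p = 0.00147) and NLGN3 by -0.39 (adjusted p = 0.0481), both lower in KO clone 2. The NLGN3 difference did not pass with DESeq2 (adjusted p = 0.195), with no filter (0.0888) or without any 1 of the 6 libraries (0.0502 to 0.317), and that of NLGN2 did not pass without KO clone 2 replicate 2 (0.0519). Each clone is a single line, so the deletion and other differences between the lines cannot be told apart.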

How the results depend on the processing

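The number of members called in PCGF6-KO against WT was 6 and stayed between 5 and 7 over all alternatives run. It was 6 (5 to 7) in KO clone 1 and 7 (6 to 8) in KO clone 2. In KO clone 2 against KO clone 1 it was 1, and 3 with an adjusted p under 0.05 alone. The calls over all tested genes rose from 4167 to 6556 with an adjusted p under 0.05 alone. With the replicate block, 6, 6, 7 and 1 members were called in the 4 comparisons. The numbers do not pair the libraries, since the deviations of same-numbered libraries correlated at 0.0238, 0.0399 and 0.131 over 15104 genes. Among single members, LRRTM3 was called with the mean of the clones (-0.92, adjusted p = 0.0164), and LRRTM1 lost a call under 3 alternatives and LRRTM3 under 2. No direction reversed in any alternative run. The partner lists held 51 called genes, and 38 to 55 over the alternatives. With the exon length of GENCODE v44, levels per length were lower for NLGN1, NLGN3, NRXN2 and LRRTM3. LRRTM1, LRRTM2 and LRRTM3 rest on at most 87 counts a library, which limits what can be said of them.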
